A study of Mus musculus with 24 samples.

Results

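The nuclear-encoded genes of the mitochondrial respiratory chain and of ATP synthase were followed in epithelial cells from mouse lung organoids grown with nylon 6,6 textile microfibers. Members were taken by gene name: the Nduf, Uqcr and Atp5 families, Cox4 to Cox8, the subunits of succinate dehydrogenase, Cyc1 and Cycs. This gave 90 of the 14557 genes in the count table. Of these, 39 carried complex I names, 8 were complex I assembly factors, 4 belonged to complex II, 8 to complex III, 14 to complex IV and 16 to complex V, and 1 was cytochrome c. Expression was measured by RNA sequencing in 12 epithelial libraries, 4 without fibers, 4 with 12000 and 4 with 30000 fibers per well. Every culture held primary EpCAM-positive lung cells of wild-type female C57BL6 mice together with the CCL206 lung fibroblast line in Matrigel, and the fibers were mixed in at seeding. After 7 days the epithelial fraction was pulled out with EpCAM microbeads, EpCAM being an adhesion molecule on the epithelial surface. The 4 libraries of a group came from separate isolations from mice 1 to 4, and each mouse is present in all 3 groups. The sources used here do not give the age of the mice.

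The respiratory chain passes electrons from NADH through complex I, or from succinate through complex II, to coenzyme Q, then through complex III and cytochrome c to oxygen at complex IV. Complexes I, III and IV pump protons across the inner mitochondrial membrane, and ATP synthase, complex V, uses their return to make ATP. Mitochondrial DNA encodes a few hydrophobic core subunits of complexes I, III, IV and V, and nuclear genes encode the rest, complex II in full, so that both genomes must supply subunits for an assembled complex. In mammals the transcription factors NRF1, GABPA (an ETS factor) and YY1 are known to bind the promoters of many of these nuclear genes. Multiciliated cells of the lung epithelium are rich in mitochondria.

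The names did not match function in every case. Ndufa4 was first assigned to complex I and is now known as a subunit of complex IV, and Ndufa4l2 is its paralog, known as a target of hypoxia-inducible factor. Ndufa12-ps is annotated as a processed pseudogene, and Ndufb1-ps as a noncoding RNA from a bidirectional promoter. Uqcrc1, Ndufs3, Cox4i2 and Atp5a1 were not analysed here. All these genes are kept with the complex that their names give.

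Promoters of 4 members are printed to show the known binding motifs of the 3 factors in genes whose response differed in size. They come from the RefSeq promoter table for build GRCm38.p6, which reaches from 250 bases before to 50 bases after a gene's annotated start and held 74 of the 90 members, 1 of them under another symbol. Cycs (chr6:50566520-50566819, minus strand) and Sdhb (chr4:140961021-140961320, plus strand) hold the NRF1 core GCGCATGC on the opposite strand. Cox8a (chr19:7217567-7217866, minus strand) holds the ETS motif CCGGAAGT at 2 places on the opposite strand, and Ndufa3 (chr7:3617123-3617422, plus strand) holds the YY1 motif AAGATGGC just after the start. Capitals mark the matches.
Cycs: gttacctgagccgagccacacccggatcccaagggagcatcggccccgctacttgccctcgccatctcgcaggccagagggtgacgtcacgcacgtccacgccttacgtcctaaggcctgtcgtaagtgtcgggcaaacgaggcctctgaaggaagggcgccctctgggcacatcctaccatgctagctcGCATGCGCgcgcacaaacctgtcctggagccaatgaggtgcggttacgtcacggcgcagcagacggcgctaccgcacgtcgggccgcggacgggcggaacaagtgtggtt
Sdhb: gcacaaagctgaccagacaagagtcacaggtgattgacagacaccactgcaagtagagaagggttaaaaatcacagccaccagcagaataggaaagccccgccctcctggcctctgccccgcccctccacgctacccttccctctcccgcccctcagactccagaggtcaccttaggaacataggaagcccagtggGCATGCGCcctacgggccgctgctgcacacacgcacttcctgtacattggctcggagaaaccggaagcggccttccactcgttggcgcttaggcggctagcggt
Cox8a: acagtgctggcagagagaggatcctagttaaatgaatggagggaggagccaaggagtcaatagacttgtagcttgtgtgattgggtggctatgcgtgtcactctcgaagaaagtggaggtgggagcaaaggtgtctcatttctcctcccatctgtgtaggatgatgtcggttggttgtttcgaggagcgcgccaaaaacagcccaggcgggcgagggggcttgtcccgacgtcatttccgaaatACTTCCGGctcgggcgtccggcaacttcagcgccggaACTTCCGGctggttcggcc
Ndufa3: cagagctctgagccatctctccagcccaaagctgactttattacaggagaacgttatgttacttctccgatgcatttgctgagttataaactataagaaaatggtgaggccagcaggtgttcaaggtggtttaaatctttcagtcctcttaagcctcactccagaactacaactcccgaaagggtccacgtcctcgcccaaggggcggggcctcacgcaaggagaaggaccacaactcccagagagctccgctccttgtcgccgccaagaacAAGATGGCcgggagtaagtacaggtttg

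On either strand, and counting a gene with overlapping matches as 1, the NRF1 core was found in 12 of the 74 member promoters (16.2%), against 3.05% of all 27025 genes in the table. The YY1 motif stood in 11 member promoters (14.9%), against 3.19% of all genes, 7 of them in complex I. The ETS motif stood in 4 member promoters (5.41%), against 4.31% of all genes. Any of the 3 was found in 26 members (35.1%), against 9.91% of all genes. Such a match is a string of letters and not a measured binding site. Members with and without a match had nearly the same median log2 fold change at 30000 fibers relative to control, 1.80 in 26 with a match and 1.77 in 47 without.

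Deposited counts per library totalled 21222034 to 28232472 without fibers, 20103389 to 31119155 with 12000 and 6767842 to 9234052 with 30000. The 4 libraries of 30000 fibers stood apart in more than depth. Mitochondrially encoded genes took 5.20 to 7.77% of the counts over 1 transcript per gene in controls, 5.33 to 6.91% with 12000 fibers, and with 30000 fibers 14.3 to 16.3%. Counts at 30000 fibers also lay further toward isoforms that end near the 3′ end of a gene. This isoform 3′ shift is the log2 ratio of the isoform ending nearest the 3′ end to the one ending farthest upstream, relative to the control mean. Its median over 3996 genes was -0.031 to 0.018 in controls, -0.044 to -0.027 with 12000 fibers and 0.400 to 0.475 with 30000. Over 21 members it was -0.009 to 0.021 in controls, -0.032 to 0.007 with 12000 fibers and 1.45 to 1.53 with 30000. The summed CPM of 6 epithelial markers was 4740.5 to 5434.5 in controls, 5401.1 to 6180.0 with 12000 fibers and 3033.4 to 3586.1 with 30000. At 12000 fibers relative to control Krt8 (log2 0.37 ± 0.08) and Cldn4 (0.69 ± 0.09) were higher, Epcam (-0.43 ± 0.09) and Grhl2 (-0.69 ± 0.08) lower, and Cdh1 and Krt18 not called, while at 30000 fibers all but Krt8 were lower. All 9 measured fibroblast markers, among them Col1a1, Dcn and Vim, were called higher at both doses relative to control. Their summed CPM, mostly Fn1, ran from 8033.8 to 12339.7 in controls, from 14271.4 to 15692.8 at 12000 fibers and from 12940.4 to 15971.9 at 30000 fibers. The sum hides the other markers. Between 30000 and 12000 fibers 6 of the 9 were higher and 3, Fn1 among them, not called. In controls, at 12000 and at 30000 fibers Dcn averaged 23.6, 65.6 and 229.6 CPM, and Vim 159.6, 351.1 and 795.1. Of 5 genes listed as immune markers, Ptprc, Cd3e and Itgam were not in the count table. The remaining Lyz2 and Cd68 summed to 68.3 to 172.0 CPM in controls, 153.4 to 276.6 with 12000 fibers and 285.8 to 458.4 with 30000. This sum was mostly Lyz2, with a mean of 108.3 CPM in controls and 344.9 at 30000 fibers, and does not tell whether immune cells were present. No tested marker averaged 0 in any group, and the part of these shifts in the results that follow was not tested. In these bulk libraries a change in the mix of cells and a change in RNA per cell cannot be told apart.

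**Figure D1:**
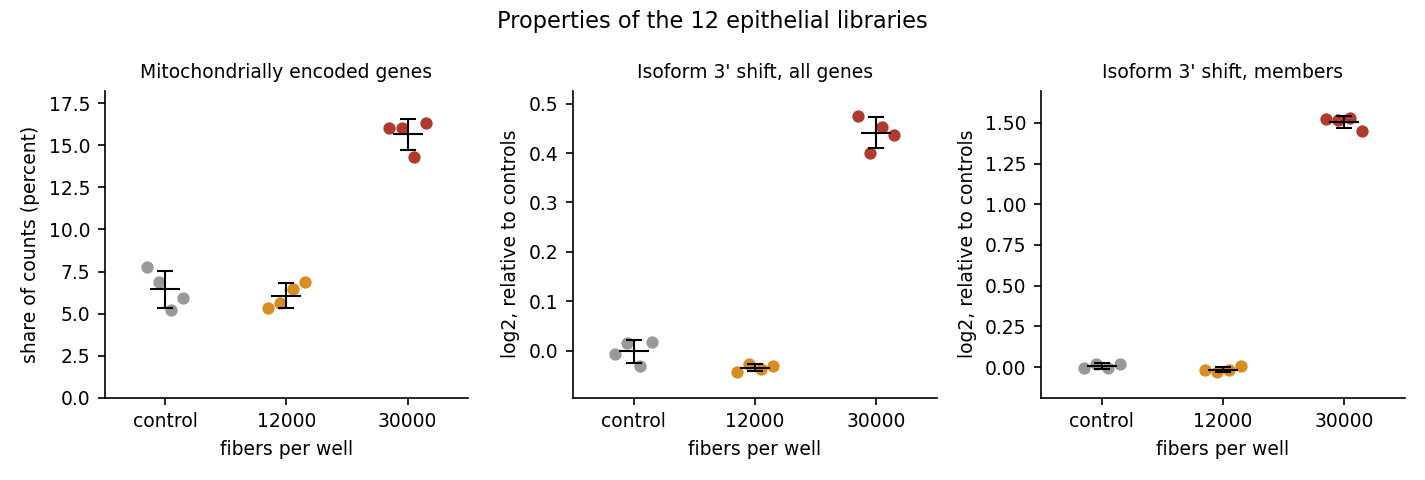
Share of counts on mitochondrially encoded genes (percent) and the isoform 3′ shift (log2, relative to the control mean) over all genes and over the members, for each of the 12 epithelial libraries by fibers per well. Points are libraries, and the horizontal mark and bars give the mean ± SD (n = 4). All 4 libraries of 30000 fibers lie above every library of the other groups in the 3 panels, with a members' shift of 1.45 to 1.53.

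Levels are given as CPM, counts per 1000000 of the library's scaled total over 1 transcript per gene, and a change is called at an edgeR adjusted p under 0.05 over all 13759 genes tested. Of the 90 members, 89 were tested, and Cox7a1 did not pass the filter on low counts.

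At 30000 fibers relative to control, 83 of the 89 members were higher, 3 lower and 3 not called, with a median log2 fold change of 1.79. Over all genes tested, 65.6% were called in this comparison, 32.2% higher and 33.4% lower, with a median of -0.03. The members took 0.966 to 1.01% of a library's counts over 1 transcript per gene at 30000 fibers and 0.372 to 0.409% in controls. Complexes I, III, IV and V rose together, complex V by the largest median (2.29) and complex IV next (2.00), while complex II was split. Between 30000 and 12000 fibers the picture was similar, with 82 members higher and 2 lower and a median of 1.60, where 55.4% of all genes were called, 28.3% higher and 27.1% lower. Both comparisons use the same libraries of 30000 fibers.

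**Figure D2:**
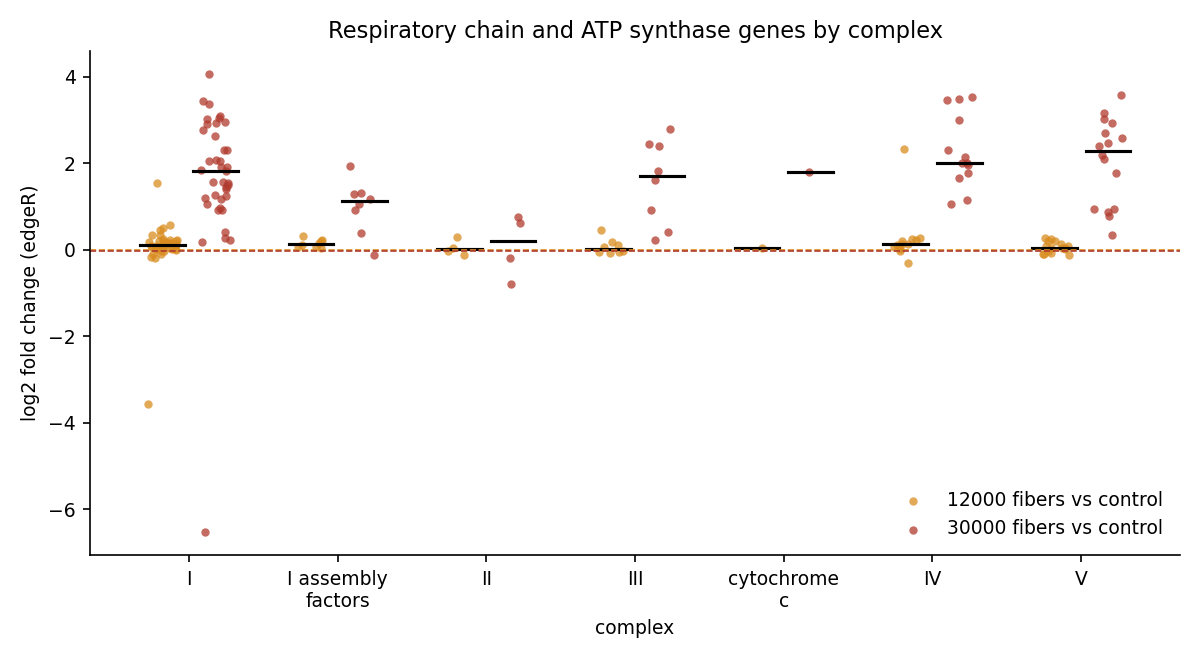
Log2 fold change of each tested member relative to control, by complex, at 12000 fibers (left in each pair) and 30000 fibers (right). Black bars are medians of the complex and dashed lines the medians of all genes tested. At 30000 fibers most members of complexes I, III, IV and V lie above 1, the 4 members of complex II lie between -0.79 and 0.75, and the single point near -6.5 is Ndufa4l2.

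Complex I takes electrons from NADH. Its 6 measured nuclear core subunits, which carry the flavin and the iron-sulfur clusters, had a median log2 fold change of 0.60 at 30000 fibers relative to control, and 5 were higher. Accessory subunits surround and stabilise the core. The 30 names placed with them, which include Ndufb1-ps, annotated as noncoding, had a median of 1.99. All 30 were higher, by 0.40 to 4.07. Summed over the 39 complex I names, the level was 1030.3 to 1169.1 CPM in controls, 1141.2 to 1235.7 with 12000 fibers and 3380.9 to 3577.0 with 30000. The groups of control and 12000 fibers overlapped, and every library of 30000 fibers lay far above both.

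Ndufb4, an accessory subunit of the membrane arm, had the largest rise of all members. It measured 100.3, 97.4, 104.5 and 105.6 CPM at 30000 fibers, against 8.33, 4.67, 5.34 and 5.97 CPM in controls (mice 1 to 4). The groups did not overlap, and the log2 fold change was 4.07 ± 0.13 (SE; adjusted p = 6.11e-16). At 12000 fibers Ndufb4 stood at 5.83, 6.13, 6.28 and 7.64 CPM, within the range of the controls. Its counted transcript (chromosome 16, 37647601 to 37649359, minus strand, GRCm38) is annotated as a form with a retained intron, and its other listed transcript changed by a like amount, 4.05 to 4.08 over the pair.

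Ndufa1, a small accessory subunit encoded on the X chromosome (37187588 to 37191163, minus strand), has a single listed transcript. Its level was 11.8, 11.0, 10.6 and 9.41 CPM in controls, 17.2, 16.9, 12.7 and 13.5 at 12000 fibers and 124.2, 118.9, 114.5 and 104.2 at 30000 fibers. No library of one group overlapped with another group, and each mouse rose with each dose. The log2 fold change relative to control was 0.51 ± 0.12 at 12000 fibers (adjusted p = 0.00164) and 3.43 ± 0.11 at 30000 fibers (adjusted p = 5.57e-16). Ndufab1, the mitochondrial acyl carrier protein, which also serves lipoic acid synthesis, averaged 113.5 ± 7.25 CPM at 30000 fibers and 15.1 ± 1.70 CPM in controls (SD, n = 4 each; log2 2.90 ± 0.09).

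Among the core subunits the changes were smaller. Ndufs1, the largest iron-sulfur subunit, measured 88.9, 80.1, 75.7 and 79.2 CPM at 30000 fibers, against 65.6, 72.3, 60.3 and 67.1 CPM in controls. Every treated library was above the highest control, yet the shift was slight (log2 0.28 ± 0.07, adjusted p = 0.00197). Ndufv1, which binds NADH and flavin, was not called, at 53.6 ± 6.23 CPM with 30000 fibers and 47.4 ± 3.04 CPM in controls (SD, n = 4 each; adjusted p = 0.0914). Ndufs7, which carries the last iron-sulfur cluster before coenzyme Q, rose more than either, with 56.8, 56.1, 60.9 and 53.8 CPM at 30000 fibers against 19.2, 20.6, 18.6 and 18.3 CPM in controls (log2 1.57 ± 0.10, adjusted p = 2.66e-11). With library totals in place of TMM scaling, the rise of Ndufs1 at 30000 fibers was no longer called (log2 0.06), nor with summed transcripts (log2 0.08, adjusted p = 0.317). Ndufv1 was called higher with a correction for GC content (log2 0.25, adjusted p = 0.0127).

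Of the 8 assembly factors of complex I, 7 were higher at 30000 fibers, with a median of 1.11. Ndufaf8, which helps Ndufaf5 modify a core subunit, averaged 16.8 ± 3.47 CPM at 30000 fibers and 4.34 ± 0.590 CPM in controls (log2 1.93 ± 0.18). Ndufaf3, a factor for the module that binds coenzyme Q, averaged 12.3 ± 2.58 and 4.95 ± 0.691 CPM in the same order (log2 1.32 ± 0.18). Ndufaf1, an early factor of the membrane arm, was not called, with 5.48, 7.41, 12.4 and 8.02 CPM at 30000 fibers around the controls, which stood at 9.03, 9.15, 9.38 and 9.41 CPM. With a correction for transcript length Ndufaf1 was called lower at 30000 fibers relative to control (log2 -0.47, adjusted p = 0.0367), and between 30000 and 12000 fibers it was called lower with that correction (-0.66, adjusted p = 0.00596), with library totals (-0.53, adjusted p = 0.0179) and without mouse 3 of the 30000-fiber group (adjusted p = 0.0103). Of 7 further complex I assembly genes outside the name rule, Tmem126b was higher and Acad9, Tmem186 and Timmdc1 were lower at 30000 fibers relative to control. Their median was -0.02, and 65.6% of all genes tested were called in this comparison.

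Ndufa4 and Ndufa4l2 moved in opposite directions at 30000 fibers. Ndufa4 measured 207.2, 205.0, 192.2 and 200.4 CPM at 30000 fibers, against 80.6, 65.3, 66.6 and 59.2 CPM in controls. All treated libraries were above all controls (log2 1.57 ± 0.08, adjusted p = 9.02e-13). At 12000 fibers Ndufa4 lay within the controls, at 64.9 to 68.2 CPM.

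Ndufa4l2 (chromosome 10, 127514967 to 127517154, plus strand) was the one member that fell steeply. It measured 25.2, 9.24, 16.8 and 19.2 CPM in controls, 1.79, 0.666, 0.837 and 2.41 CPM at 12000 fibers and 0.392, 0, 0 and 0.334 CPM at 30000 fibers. The 3 groups did not overlap. At 12000 fibers the log2 fold change relative to control was -3.57 ± 0.37 (adjusted p = 6.09e-06), with all 4 mice lower. At 30000 fibers the fitted value was -6.54 ± 0.73 (adjusted p = 2.92e-06). It rests on 2 reads over the 4 libraries, against 632 in the controls, a ratio of 0.0098 per scaled total with an exact 95% interval of 0.00118 to 0.0356 that covers counting error only. The step between 30000 and 12000 fibers was not called (adjusted p = 0.0538), but was with the mouse as a block (log2 -2.91, adjusted p = 0.00166). This step was also called with any 1 of 4 libraries left out, control mouse 1 or 2 or mouse 2 or 3 of the 12000-fiber group (adjusted p = 0.00651 to 0.0455). DESeq2 called it as well (adjusted p = 0.00922). The same held for thinned counts (0.0113), the correction for transcript length (0.0115), summed transcripts (0.0301) and library totals (0.0339). The step rests on 2 reads at 30000 fibers against 49 at 12000. The ratio per scaled total was 0.115, with an exact 95% interval of 0.0136 to 0.44 for counting error only.

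**Figure D3:**
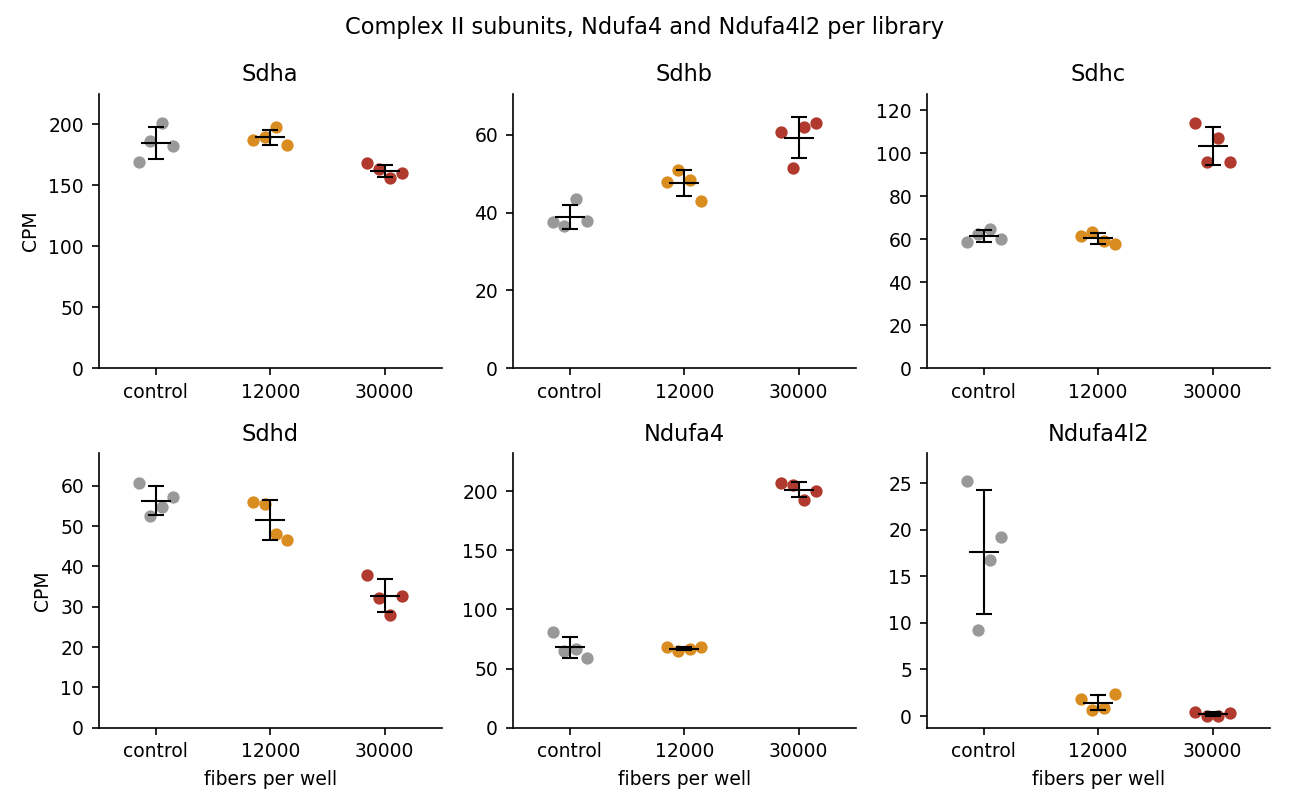
CPM of the 4 complex II subunits, of Ndufa4 and of Ndufa4l2 in each of the 12 libraries, by fibers per well. Points are libraries and marks with bars the mean ± SD (n = 4). Sdhb and Sdhc are higher and Sdha and Sdhd lower at 30000 fibers than in controls, and Ndufa4l2 is below 2.5 CPM in every library with fibers.

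Complex II, succinate dehydrogenase, links the tricarboxylic acid cycle to the chain and has no subunit encoded in mitochondria. Its summed level was nearly level across the series, at 326.4 to 364.0 CPM in controls, 329.6 to 359.2 with 12000 fibers and 342.5 to 380.4 with 30000, and the 3 ranges overlapped. The median log2 fold change of its 4 subunits at 30000 fibers relative to control was 0.21, which turned to -0.01 with library totals in place of TMM scaling and to -0.08 with a correction for transcript length.

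The members of complex II differed from each other. Sdhd, a membrane anchor, measured 38.0, 32.1, 28.0 and 32.7 CPM at 30000 fibers, against 60.8, 52.4, 54.7 and 57.3 CPM in controls. The groups were apart (log2 -0.79 ± 0.10, adjusted p = 8.36e-07), and Sdhd has a single listed transcript. Sdhc, the other anchor, was on the other side, with 114.0, 96.0, 106.9 and 95.9 CPM at 30000 fibers against 58.9, 62.2, 64.8 and 59.9 CPM in controls (log2 0.75 ± 0.07, adjusted p = 1.85e-08). Sdhb, the iron-sulfur subunit, measured 37.6, 36.7, 43.6 and 37.9 CPM in controls, 48.0, 50.9, 48.4 and 43.0 at 12000 fibers and 60.7, 51.5, 62.1 and 63.1 at 30000 fibers. Control and 12000 fibers overlapped in 1 library each, and the log2 fold changes relative to control were 0.29 ± 0.08 at 12000 fibers (adjusted p = 0.00777) and 0.61 ± 0.09 at 30000 fibers (adjusted p = 4.76e-06). Summed over its 3 listed transcripts, Sdhb was not called at 30000 fibers (log2 0.20, adjusted p = 0.0687). Between 30000 and 12000 fibers its value of 0.32 ± 0.09 (adjusted p = 0.00395) was not called with library totals (0.11, adjusted p = 0.278), turned to -0.07 with summed transcripts and was called lower with the length correction (-0.28, adjusted p = 0.0129). Sdha, the flavoprotein that oxidises succinate, was 161.7 ± 5.00 CPM at 30000 fibers and 184.6 ± 13.1 CPM in controls (SD, n = 4 each; log2 -0.19 ± 0.06, adjusted p = 0.0121). Its call was lost without mouse 3 of the controls (adjusted p = 0.0514).

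The 4 assembly factors of complex II were all called higher at 30000 fibers, with a median of 0.66, led by Sdhaf4, which binds the flavoprotein (log2 2.39 ± 0.16). Of 17 genes of the tricarboxylic acid cycle and pyruvate dehydrogenase, 13 were higher and 2 lower, with a median of 0.32. Suclg2, of succinyl-CoA ligase, had the largest change (1.16 ± 0.08), citrate synthase, Cs, changed by 0.32 ± 0.07, and Idh2 and Pdha1 were lower (both -0.18).

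Complex III carries electrons from coenzyme Q to cytochrome c. Its summed level was 358.6 to 415.9 CPM in controls, 377.5 to 427.5 with 12000 fibers and 1032.9 to 1089.7 with 30000. The 5 small subunits were all higher at 30000 fibers relative to control, with a median log2 fold change of 2.40 and a range of 1.62 to 2.80. The 3 core subunits had a median of 0.40, and 2 were called.

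Uqcrb, a small subunit next to the quinone site, measured 155.5, 149.6, 154.0 and 154.0 CPM at 30000 fibers, against 26.4, 22.7, 18.4 and 20.2 CPM in controls. The treated libraries lay close together and far from the controls (log2 2.80 ± 0.09, adjusted p = 1.4e-15). Uqcrq, another small subunit, was the one member of complex III called at 12000 fibers. It stood at 41.1, 34.1, 33.2 and 29.3 CPM in controls, 50.8, 42.0, 48.2 and 47.8 at 12000 fibers and 178.6, 194.4, 181.9 and 173.0 at 30000 fibers. No groups overlapped, with log2 0.46 ± 0.09 at 12000 fibers (adjusted p = 0.000412) and 2.40 ± 0.09 at 30000 fibers (adjusted p = 8.9e-15).

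Uqcrfs1, the Rieske iron-sulfur protein, averaged 96.2 ± 7.77 CPM at 30000 fibers and 51.0 ± 1.44 CPM in controls (SD, n = 4 each; log2 0.92 ± 0.07). Uqcrc2, a structural core protein, averaged 144.9 ± 10.4 and 110.2 ± 2.34 CPM in the same order (log2 0.40 ± 0.06), but had a log2 fold change of -0.12 when all 6 of its listed transcripts were summed. Cyc1, which hands electrons to cytochrome c, was not called, with 73.7, 72.3, 66.2 and 72.5 CPM at 30000 fibers against 63.0, 70.4, 59.4 and 51.5 CPM in controls (log2 0.22 ± 0.10, adjusted p = 0.0672). Its counted transcript is annotated as a form with a retained intron. The log2 changes of its 7 listed transcripts at 30000 fibers ran from -4.85 to 0.52. Cyc1 was called with the mouse as a block (log2 0.23, adjusted p = 0.019), with a correction for GC content (0.43, adjusted p = 0.000477), without control mouse 2 (adjusted p = 0.0155) and without mouse 4 of the 12000-fiber group (adjusted p = 0.0405). Of the 6 assembly genes of complex III, Uqcc2 (log2 2.06 ± 0.15) and Uqcc3 (1.15 ± 0.19) were higher, Uqcc1 was lower (-0.29 ± 0.10), and Bcs1l, Lyrm7 and Ttc19 were not called. Among all genes tested 65.6% were called in this comparison.

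Cycs, the somatic cytochrome c, measured 52.9, 53.3, 63.3 and 59.8 CPM at 30000 fibers, against 20.7, 19.1, 13.7 and 12.7 CPM in controls. The groups were far apart (log2 1.79 ± 0.13, adjusted p = 7.48e-10), and at 12000 fibers it lay within the controls at 14.9 to 18.4 CPM. Cycs has 1 listed transcript. Coenzyme Q, the other mobile carrier, is made by enzymes of which 1 (Coq4) of 11 measured was higher and 3 (Coq6, Coq8a, Coq8b) lower at 30000 fibers, with a median of -0.15. Neither count was above the share over all genes tested, 32.2% higher and 33.4% lower.

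Complex IV reduces oxygen. Its summed level was 614.2 to 702.8 CPM in controls, 712.1 to 750.7 with 12000 fibers and 2535.6 to 2791.4 with 30000, with no overlap between the 3 groups. All 13 tested members were higher at 30000 fibers relative to control, and the 10 subunits found in all tissues had a median log2 fold change of 2.08 and a range of 1.14 to 3.48. Per kilobase of transcript, Cox6c was the most abundant member at 30000 fibers, at 759.9 CPM per kilobase. In controls Cox4i1 was the highest of complex IV at 204.0 and Cox6c stood at 69.0 CPM per kilobase. Levels per kilobase divide the counts of 1 transcript per gene by its own length, so such ranks depend on the transcript chosen. The transcript of Cox6c held 25.8% of its gene's counts.

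Cox6c, a small transmembrane subunit, measured 371.4, 402.8, 373.6 and 381.2 CPM at 30000 fibers, against 39.1, 36.4, 30.6 and 32.7 CPM in controls. Every treated library was above every control (log2 3.46 ± 0.08, adjusted p = 1.47e-17), and at 12000 fibers it lay at 32.7 to 41.3 CPM, across the control range. Cox7c, also a small transmembrane subunit, had 43.5, 40.9, 44.5 and 43.1 CPM at 30000 fibers against 4.98, 2.82, 4.04 and 3.64 CPM in controls (log2 3.48 ± 0.15, adjusted p = 1.13e-13). Its direction depended on the transcript: the isoform highest in controls gave a log2 fold change of -1.36.

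Cox4i1, the subunit at which ATP regulates the enzyme, measured 302.5, 377.1, 330.0 and 331.0 CPM at 30000 fibers, against 160.8, 158.0, 151.8 and 137.4 CPM in controls (log2 1.14 ± 0.07, adjusted p = 3.91e-11). The groups did not overlap. Cox5a, which faces the matrix, was higher at both doses, with 56.3, 60.6, 52.4 and 54.0 CPM in controls, 69.9, 66.3, 62.6 and 62.3 at 12000 fibers and 193.1, 190.1, 192.2 and 184.7 at 30000 fibers. No groups overlapped, and the log2 fold changes relative to control were 0.23 ± 0.06 at 12000 fibers (adjusted p = 0.00864) and 1.77 ± 0.07 at 30000 fibers (adjusted p = 8.9e-15). Cox5b, Cox6a1 and Cox8a, further subunits of the nuclear shell, were likewise called at 12000 fibers, by log2 0.25 ± 0.08, 0.21 ± 0.07 and 0.27 ± 0.07, and at 30000 fibers, by 2.00 ± 0.08, 2.00 ± 0.07 and 1.96 ± 0.07. At 12000 fibers Cox5b and Cox6a1 were not called without control mouse 4 (adjusted p = 0.0974 and 0.121) or without mouse 1 of the 12000-fiber group (0.079 and 0.0657), nor Cox6a1 without mouse 2 of that group (0.0744). With the length correction neither Cox6a1 (log2 0.14, adjusted p = 0.109) nor Cox8a (0.19, adjusted p = 0.0731) was called at 12000 fibers. Cox5b was not called with summed transcripts (adjusted p = 0.0504) or thinned counts (adjusted p = 0.0541). Cox6b1 (2.15 ± 0.08), Cox7a2 (2.99 ± 0.08) and Cox7b (2.31 ± 0.10) rose at 30000 fibers and were not called at 12000, except Cox6b1 without control mouse 1 (adjusted p = 0.0266). Cox7a2l, described as a factor for supercomplexes of complexes III and IV, rose by 1.05 ± 0.07 at 30000 fibers. Supercomplexes were not measured in these mice.

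The tissue-restricted paralogs stayed near the floor of detection. Cox6a2, the heart and muscle form of Cox6a1, measured 0, 0.486, 0.13 and 0.202 CPM in controls, 1.34, 1.33, 0.976 and 0.938 at 12000 fibers and 3.92, 1.41, 2.35 and 3.34 at 30000 fibers. No groups overlapped (log2 2.32 ± 0.52, adjusted p = 0.00144 at 12000 fibers, and 3.53 ± 0.53, adjusted p = 7.5e-06 at 30000 fibers, both relative to control). Cox6a2 was too low in every control to pass the filter on low counts, and was tested only through libraries with fibers. Its p-values and lack of overlap are therefore no support for a change. Cox6b2, the testis form of Cox6b1, was 6.66, 1.76, 7.65 and 7.02 CPM at 30000 fibers, with mouse 2 at the level of the controls (1.65 to 2.12 CPM). The call (log2 1.66 ± 0.36, adjusted p = 0.000433) turned to -1.82 with the isoform highest in controls and was lost with the length correction (log2 0.04, adjusted p = 0.939). Cox7a1, the muscle form of Cox7a2, was untested, at 1.18 to 3.53 CPM with 30000 fibers and 0.389 to 0.463 CPM in controls.

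Of the 19 measured genes for assembly of complex IV and its copper supply, 14 were higher and 2 lower at 30000 fibers relative to control, with a median of 0.70. Sco2, a copper chaperone, was higher at both doses, with a mean of 1.37 CPM in controls, 2.67 at 12000 fibers and 14.8 at 30000 fibers (log2 0.98 ± 0.26, adjusted p = 0.00603, and 3.41 ± 0.24, adjusted p = 1.75e-10, relative to control). Cox17, which brings copper to the Sco proteins, rose by 1.99 ± 0.11 at 30000 fibers, while Sco1 fell by 0.45 on the log2 scale.

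**Figure D4:**
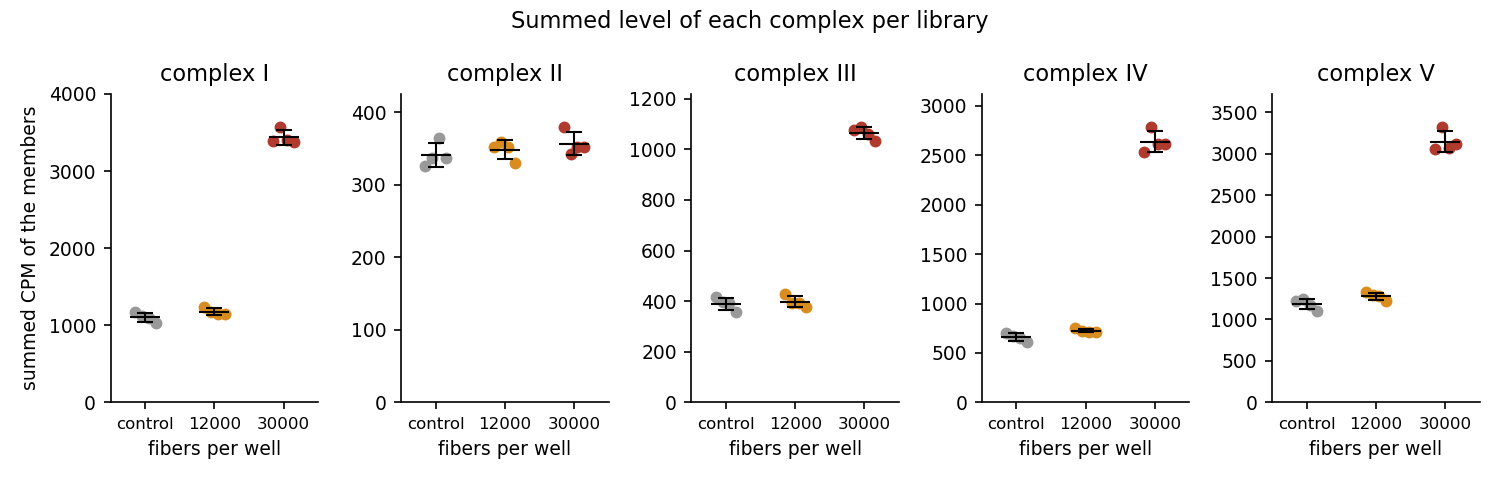
Summed CPM of the members of complexes I to V in each of the 12 libraries, by fibers per well. Points are libraries and marks with bars the mean ± SD (n = 4). Complexes I, III, IV and V are higher in all 4 libraries of 30000 fibers than in any other library, and complex II overlaps between the groups.

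ATP synthase had the largest median. Its summed level was 1100.0 to 1249.0 CPM in controls, 1223.0 to 1327.2 with 12000 fibers and 3062.9 to 3327.6 with 30000, and all 16 members were higher at 30000 fibers relative to control. The medians differed between the parts of the enzyme, whose members overlapped. The F1 head and central stalk, where ATP is made, had a median log2 fold change of 0.86, the peripheral stalk 1.36, the c ring, which turns with the protons, 2.70, and the small accessory subunits of the membrane part 2.92. Atp5e of the central stalk rose by 2.18, more than 3 of the 4 members of the peripheral stalk, and Atp5g2 of the c ring by more than any accessory subunit.

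Atp5b, the catalytic subunit, was by its counted transcript the most abundant member per kilobase in controls, at 273.6 CPM per kilobase. It measured 488.1, 575.8, 535.2 and 497.4 CPM in controls, 631.6, 605.9, 614.3 and 567.1 at 12000 fibers and 658.2, 731.3, 646.4 and 623.3 at 30000 fibers. Only the libraries of 30000 fibers lay wholly above the controls (log2 0.34 ± 0.07, adjusted p = 0.000252), and the rise at 12000 fibers was smaller (0.21 ± 0.07, adjusted p = 0.024) and not called without control mouse 1 or 4 or without mouse 1 or 3 of the 12000-fiber group (adjusted p = 0.0571 to 0.0748), nor with summed transcripts (adjusted p = 0.0589). With library totals in place of TMM scaling the call at 30000 fibers was lost (log2 0.12, adjusted p = 0.136). Atp5d, of the central stalk, rose by 0.20 ± 0.07 at 12000 fibers (adjusted p = 0.0397) and by 0.78 ± 0.08 at 30000 fibers (adjusted p = 2.6e-08). The rise at 12000 fibers was not called without control mouse 1 or 4 or without mouse 1, 2 or 3 of the 12000-fiber group (adjusted p = 0.06 to 0.151), nor with library totals (0.0642), summed transcripts (0.0785) or the length correction (0.11).

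Atp5g1, Atp5g2 and Atp5g3 encode the same mature c subunit with different import sequences. Per kilobase of transcript Atp5g3 was the highest of the 3, at 450.9 CPM per kilobase with 30000 fibers and 85.2 in controls. It measured 349.1, 326.3, 304.4 and 308.0 CPM at 30000 fibers, against 66.3, 63.6, 56.3 and 57.1 CPM in controls. The groups were far apart (log2 2.40 ± 0.07, adjusted p = 5.45e-16). Atp5g1 averaged 95.8 ± 11.5 CPM at 30000 fibers and 14.7 ± 2.92 CPM in controls (log2 2.70 ± 0.12), and Atp5g2 15.5 ± 1.79 and 1.28 ± 0.394 CPM in the same order (log2 3.57 ± 0.22; SD, n = 4 each). None of the 3 was called at 12000 fibers.

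Atp5md, a small membrane subunit that holds synthase dimers together, measured 260.1, 305.8, 288.5 and 310.0 CPM at 30000 fibers, against 41.9, 31.0, 29.4 and 29.1 CPM in controls (log2 3.15 ± 0.10, adjusted p = 7.17e-15). Mouse 1 was the highest control, and the groups did not overlap. Atp5o, the stalk subunit known as OSCP, rose less, with 76.4, 89.2, 72.1 and 80.2 CPM at 30000 fibers against 49.9, 44.4, 38.0 and 33.4 CPM in controls (log2 0.94 ± 0.11, adjusted p = 3.43e-07). Atpif1, the natural inhibitor of the enzyme, lay outside the name rule and rose by 1.78 ± 0.09. Of the 4 assembly genes beside it, Atpaf2 and Tmem70 were higher, Tmem242 was lower and Atpaf1 was not called, where 65.6% of all genes tested were called.

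At 12000 fibers relative to control, 18 of 89 members were higher and 1, Ndufa4l2, was lower, with a median log2 fold change of 0.08. Over all genes tested, 38.0% were called, 18.7% higher and 19.3% lower, with a median of 0.00. The share of members called in either direction was thus below that of all genes, and the share called higher was near it. The summed level of the members was 3864.9 to 4183.1 CPM at 12000 fibers and 3514.6 to 3917.9 CPM in controls, and the ranges overlapped. The 18 were spread over complex I (9), complex II (1), complex III (1), complex IV (5) and complex V (2), and no assembly factor was among them. Ndufa5, an accessory subunit of the matrix arm, had the largest rise of the protein-coding members of complex I, with 13.0, 11.5, 9.48 and 8.84 CPM at 12000 fibers against 7.41, 7.59, 7.82 and 6.37 CPM in controls (log2 0.57 ± 0.13, adjusted p = 0.00226). Its groups did not overlap. The pseudogene Ndufa12-ps, whose reads may be shared with Ndufa12, averaged 1.57 CPM at 12000 fibers and 0.549 CPM in controls (log2 1.54 ± 0.37, adjusted p = 0.00292), and Ndufa12 itself was not called (0.13 ± 0.15). The call of Ndufa12-ps was lost with counts thinned to the shallowest library (adjusted p = 0.144). Outside Ndufa12-ps and Cox6a2, the lowest of these genes, the rises lay between 0.20 and 0.57. Ndufa12-ps and Cox6a2 passed the filter on low counts only through libraries with fibers, so their calls are no support for a change. The 12000-fiber libraries showed neither the isoform shift nor the raised mitochondrial share, and their fibroblast marker sum was above the controls, whose part in these calls was not tested. Without control mouse 4 or without mouse 1 of the 12000-fiber group, 11 members were called higher.

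The 13 mitochondrially encoded subunits were measured in the same libraries. None was called at 12000 fibers, and at 30000 fibers relative to control 12 were higher and 1 lower, with a median of 2.04. mt-Nd3, a complex I subunit, averaged 1386.2 CPM at 30000 fibers and 42.0 CPM in controls (log2 5.04 ± 0.25), and mt-Co1, the catalytic subunit of complex IV, 33189.8 and 18989.9 CPM in the same order (log2 0.81 ± 0.12). mt-Nd6, the subunit encoded on the opposite strand of the mitochondrial genome, was the exception, at 100.4 CPM with 30000 fibers and 373.2 CPM in controls (log2 -1.90 ± 0.17).

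Regulators of mitochondrial gene expression had no common direction. Of 15, 4 were higher and 5 lower at 30000 fibers relative to control, and 2 were higher and 2 lower at 12000 fibers. Over all genes tested, 32.2% were higher and 33.4% lower at 30000 fibers, and 18.7% and 19.3% at 12000 fibers. The counts among the regulators were not above these shares. The coactivator gene Ppargc1a averaged 10.4 CPM in controls, 17.4 at 12000 fibers and 27.7 at 30000 fibers (log2 relative to control 0.74 ± 0.12, adjusted p = 0.0001, and 1.41 ± 0.13, adjusted p = 1.79e-08). Nrf1 (log2 -0.47 ± 0.09), Gabpa (-0.32 ± 0.07) and Yy1 (-0.28 ± 0.06), whose motifs are printed above, were lower at 30000 fibers, as was Esrra, a nuclear receptor of mitochondrial genes (-0.97 ± 0.11). Tfam (0.48 ± 0.10) and Tfb2m (1.13 ± 0.11), which start transcription of mitochondrial DNA, were higher. Of 8 carriers and pores that serve the chain, 6 were higher, Slc25a1 was lower (-0.62 ± 0.09) and Vdac1 was not called. The 6 included the phosphate carrier Slc25a3 (1.36 ± 0.07) and the ADP/ATP carrier Slc25a4 (1.28 ± 0.08). They also included Vdac2 (1.15 ± 0.06) and Vdac3 (2.12 ± 0.09), which like Vdac1 are pores of the outer membrane.

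The size of the rise went with the size of the subunit. The 87 tested members with a coding sequence had a median coding length of 423 bases, against 1416 bases over 12709 genes. Across these members, coding length and the log2 fold change at 30000 fibers relative to control had a Spearman rho of -0.71, and across all genes rho was -0.32. Genes and members share the same libraries, so these values are descriptions. At 12000 fibers relative to control rho was -0.03 over the members. Within classes of coding length most members lay above the median of all genes. Genes coding for 99 to 777 bases had a median log2 fold change of 0.53 at 30000 fibers, against 1.98 for the 70 members among them, of which 68 were above that median. From 780 to 1191 bases the median was 0.91 for 9 members and 0.09 for all genes, and from 1194 to 1671 bases 0.36 for 6 members and -0.04 for all genes. From 1674 to 2559 bases 1 of 2 members was above the median of -0.16, and Sdha was below it. The part of length in the members' rise was not tested.

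**Figure D5:**
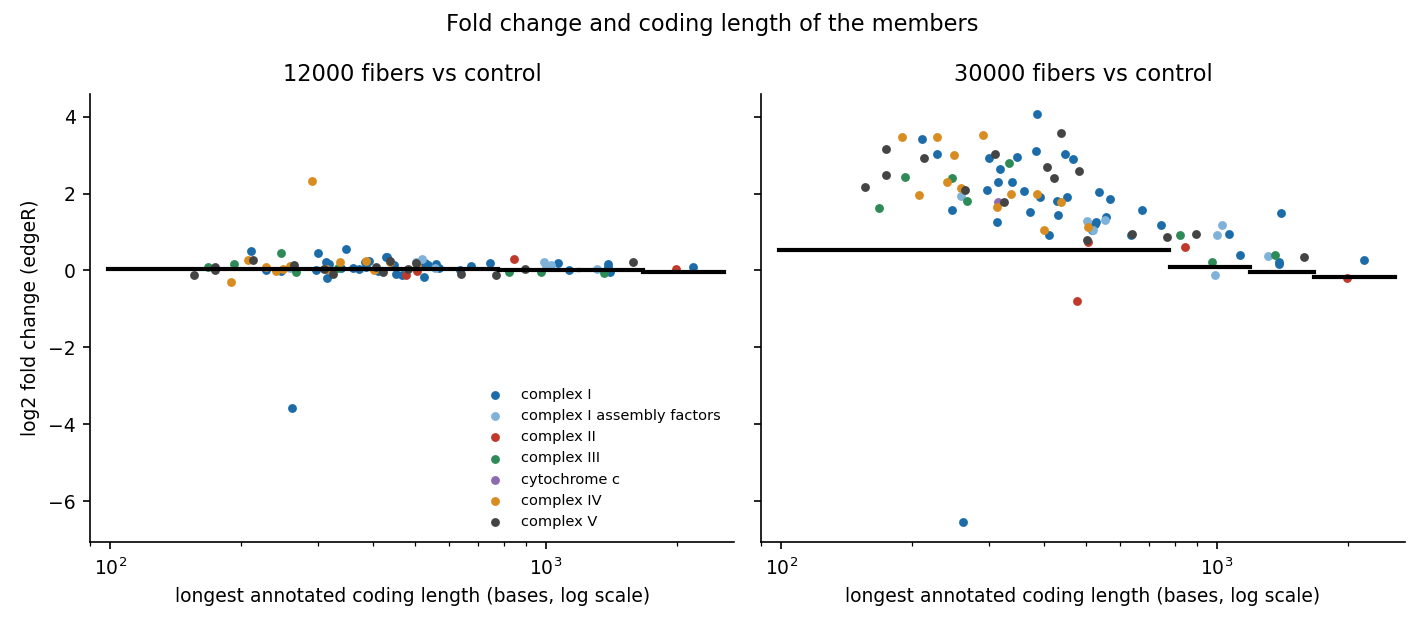
Log2 fold change relative to control against the longest annotated coding length (bases, log scale) for 87 members, at 12000 fibers (left) and 30000 fibers (right). Points are coloured by complex and black lines are the medians of all genes in the same length class. At 30000 fibers the shortest members lie highest, with class medians of 1.98, 0.91 and 0.36 from short to long, and at 12000 fibers no such slope is seen.

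The length correction used the length of the counted transcript, and none was made for coding length. In 5 classes of transcript length, the members' medians at 30000 fibers relative to control were 1.92, 0.39, 1.27, 2.30 and 3.03 from short to long. The shortest class held 73 members and the longest 1. With the trend of fold change on transcript length removed from each library, 67 members were higher and 5 lower at 30000 fibers relative to control, and the median was 0.77. By complex it was then 0.91 for I, -0.08 for II, 0.36 for III, 0.99 for IV and 1.17 for V. The sign changed in 6 members that were higher in the uncorrected comparison. Atp5d, Atp5o, Cox4i1, Sdhb and the assembly factor Ndufaf2 had values of -0.13, -0.12, -0.08, -0.02 and -0.06 with the correction, and Uqcr11, a small subunit of complex III, was called lower (-0.31, adjusted p = 0.0069). The rise of the members, the isoform shift, the share of mitochondrially encoded counts and the lower depth occurred in the same 4 libraries of 30000 fibers. So did the lower sum of epithelial markers and the further rise of most fibroblast markers. All of these cannot be told apart from the fiber dose in this design. The isoform values bear on the members directly. Of their 390 listed transcripts, 242 had a log2 fold change above 0 at 30000 fibers, and in 22 of the 78 genes with several listed transcripts all of them did. No such count was made over the transcripts of all genes, and the part of isoform choice in the members' rise was not tested. The 12 members with a single listed transcript, where no isoform had to be chosen, had 11 higher and 1 lower with a median of 1.86. In 12 members, among them Cyc1, Cox5a, Ndufa4, Ndufab1 and Ndufb4, the counted transcript is annotated as a form with a retained intron. Of these 12, 11 were higher, with a median of 1.97. With a protein-coding transcript, 69 of 74 tested members were higher, with a median of 1.79. Many genes for small subunits have processed pseudogene copies of nearly the same sequence, and their levels are uncertain to the extent that reads were shared with these.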

How the data were processed

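RNA was sequenced from 24 libraries, and the 12 epithelial ones were used. The submitters' processing notes list bcl2fastq, FastQC, cutadapt 1.12, HISAT2 2.1.0 and build mm10. Not given in the sources used here are how reads were assigned to transcripts, the strand setting and the treatment of the molecular barcodes named in the labels. Values deposited by the authors are raw counts per Ensembl transcript, whole numbers with unequal totals. Fibroblast columns were not used, because their entries do not follow the transcript identifiers. Each gene was represented by the transcript with the highest mean over the 12 libraries. This transcript held a median of 38.8% of a member's counts, and how reads were shared among isoforms and pseudogene copies was not tested. Annotation came from GENCODE M21 (GRCm38), which held 70518 of the 71081 transcripts.

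Groups came from the sample titles. All 12 libraries entered 1 edgeR 4.0.16 fit (R 4.3.3; filterByExpr, TMM, robust quasi-likelihood F test, Benjamini-Hochberg over 13759 genes, 9 residual degrees of freedom). Standard errors derive from the F statistic. The script was tested on simulated data. Same-numbered libraries come from the same mouse, and their deviations from the group means correlated at -0.02 to 0.16. Fits with the mouse as a block, DESeq2 1.42.0, other scalings, filters, transcript choices, length and GC offsets, thinned counts and left-out libraries were alternatives. The lists have no test of their own and are described by counts and medians. Members and lists were chosen with earlier results of these data known. Named genes were, per complex and comparison, the 2 largest called rises and falls with log2 CPM averaging 1 or more, the 2 most abundant members and a fixed set of subunits. Ndufa3 was added for its promoter and Ndufa12 beside its pseudogene, and the other genes of the companion lists were named after their values had been seen. The values of 1 member chosen by this rule are not reported here.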

Additional observations from a re-analysis of the deposited data

Results flagged for a closer look

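Among the named members, in groups of 4 libraries, 5 had 1 library far from the other 3 of its group, out of 147 groups looked at. Chance flags about 1 in 20 such groups. In controls, mouse 1 was the highest for Atp5md (41.9 CPM, against 29.1 to 31.0 in the other 3 mice), for Cox7b (88.9 CPM, against 62.0 to 62.7) and for Uqcr10, a small subunit of complex III (23.6 CPM, against 20.0 to 20.6). At 12000 fibers, mouse 4 was the lowest for Ndufaf4, an assembly factor of complex I (13.4 CPM, against 16.8 to 17.5). At 30000 fibers, mouse 2 was the lowest for Cox6b2 (1.76 CPM, against 6.66 to 7.65). No cause was tested.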

How the results depend on the processing

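Across the alternatives, 78 to 85 members were higher and 2 to 5 lower at 30000 fibers relative to control, except that 67 were higher with a length offset, with or without the mouse as a replicate block. The offset alone left 5 lower, and so did the transcript highest in controls, which differed from the main choice in 6 members. With 1 library left out in turn, 83 to 85 were higher and 2 to 3 lower. At 12000 fibers relative to control, 10 were higher after thinning to the shallowest library and 11 to 19 with 1 library left out, and 2 were lower with summed transcripts or with the transcript highest in controls. Between 30000 and 12000 fibers, 78 to 83 were higher and 2 to 3 lower with 1 library left out, 5 were lower with total counts, 4 with summed transcripts and 8 with the length offset, also with the replicate block. Total counts moved the median of all genes to -0.25 at 30000 fibers relative to control and to -0.22 between the doses, where 5649 genes were lower. The replicate block changed the calls of Cyc1 at 30000 fibers relative to control and of Ndufa4l2 between the doses, and of no other named member. With it 84 members were higher at 30000 fibers relative to control, and 19 at 12000 fibers. A change of sign was counted where either value was called. Over all 89 tested members the length offset gave 6 at 30000 fibers relative to control and 11 between the doses. Among the named members at 30000 fibers relative to control, with the length offset and then with the block added, these were Atp5d (-0.13, -0.14), Atp5o (-0.12, -0.11), Cox4i1 (-0.08, -0.08) and Sdhb (-0.02, -0.03). The transcript highest in controls gave -1.82 for Cox6b2 and -1.36 for Cox7c, and summed transcripts -0.12 for Uqcrc2. Between the doses the length offset, alone and with the block, gave Atp5d -0.28 and -0.29, Cox4i1 -0.14 and -0.14, Cox6a2 -0.05 and -0.02, Ndufa12-ps -0.13 and -0.12, and Sdhb -0.28 and -0.29. Between the doses, the transcript highest in controls gave -1.13 for Cox6b2 and -0.67 for Cox7c, summed transcripts gave Cyc1 -0.04, Ndufs1 -0.03, Sdhb -0.07 and Uqcrc2 -0.11, and total counts gave Ndufs1 -0.03. The cause was not tested. The libraries of 30000 fibers were the shallowest, which limits low genes such as Ndufa4l2 and Cox6a2.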
